A study of Mus musculus with 45 samples.

Results

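The expression of 10 astrocyte genes, of 15897 genes in the table, was followed in the hippocampus of female mice that carried Alzheimer-linked transgenes and were fed a standard or a Western diet. The genes were given as a list of symbols and were set in 2 classes: 3 reactive genes (Gfap, Vim, Serpina3n) and 7 genes of resting astrocytes (Aqp4, Gja1, Slc1a2, Slc1a3, Aldh1l1, Glul, S100b). The rule names the genes and uses no measured value, although the list was drawn up with earlier results of these data known. All 10 were in the table.

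The mice were C57Bl/6J females of 4 genotypes. AwTw mice were wild type, AwT+ mice carried human Tau with the P301L mutation under the CaMKII promoter of forebrain neurons, and A+Tw mice carried the APPswe/PS1dE9 transgene (APP/PS1 below), which joins APP with the Swedish mutations and PS1 with an exon deletion under the mouse PrP promoter. A+T+ mice came from crossing heterozygous mice of both lines and carried both transgenes. Within each genotype mice stayed on the standard diet (STD, 5% w/w fat, 0% cholesterol) or received the typical Western diet (TWD, 21% w/w fat, 0.15% cholesterol, with sucrose) from 7 months of age until sacrifice at 13 months. Each of the 45 samples was 1 mouse. Each of the 8 groups held 6 mice, except A+Tw/STD with 5 and A+T+/STD with 4. Replicate numbers below only name mice within a group and were given in the order of the samples, not by the labels. Each value below is a variance-stabilized expression value on a log2-like scale, so a difference of 1 is close to a 2-fold change for well-expressed genes. Levels are compared between mice within a gene and never between genes, because the values are not per transcript length.

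Astrocytes clear glutamate and potassium from synapses, couple into networks through gap junctions, and line blood vessels with endfeet rich in water channels. Near injury, inflammation or amyloid deposits they enter reactive states, in which intermediate filaments of the cytoskeleton and secreted acute-phase proteins typically rise. Gfap and Vim encode 2 such filament proteins and Serpina3n a secreted inhibitor of serine proteases. Aqp4 is the endfoot water channel, Gja1 the gap junction protein connexin 43, Slc1a2 and Slc1a3 the glutamate transporters GLT-1 and GLAST, Glul glutamine synthetase, Aldh1l1 a folate enzyme used as a pan-astrocyte marker, and S100b a calcium-binding protein that some oligodendrocyte lineage cells also make.

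Promoters of the 3 reactive genes are shown because these were the members that differed with the APP/PS1 genotype. Each run covers the 100 bases before to the 20 bases after the RefSeq gene start (GRCm38.p6), from 5′ to 3′. The windows lie at chr11:102897181-102897300 on the minus strand for Gfap, chr2:13574211-13574330 on the plus strand for Vim and chr12:104406608-104406727 on the plus strand for Serpina3n.
Gfap: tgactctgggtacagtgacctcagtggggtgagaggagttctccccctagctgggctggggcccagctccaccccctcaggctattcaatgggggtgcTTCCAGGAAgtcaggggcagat
Vim: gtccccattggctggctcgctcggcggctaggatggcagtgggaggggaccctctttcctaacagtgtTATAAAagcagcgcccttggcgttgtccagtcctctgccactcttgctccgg
Serpina3n: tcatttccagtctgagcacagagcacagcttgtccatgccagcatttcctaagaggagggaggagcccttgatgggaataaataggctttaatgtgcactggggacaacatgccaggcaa
These starts differ from the ends of the annotated genes given below: the Serpina3n window ends before the annotated gene begins, and the Gfap and Vim windows lie inside their genes. The bases after the start were found in 1 annotated Gfap transcript, 2 of Vim and 0 of Serpina3n.
Capitals mark matches to 3 motifs searched on both strands: TTCNNNGAA, the palindromic letters of STAT sites, TATAAA, and TGAGTCA, the AP-1 letters. The Gfap window held TTCNNNGAA from 2 bases before the start, a motif found in 3.14% of 32851 promoter windows of this length. Vim held TATAAA 32 bases before the start, as 6.1% of windows did, and Serpina3n held none of the 3. Windows of resting genes were searched too and are not printed. Among them Slc1a3 also held TTCNNNGAA and Gja1 held TGAGTCA, so such matches were not particular to the reactive genes. A match is a description of letters, not evidence of binding.

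The genes lie on the GRCm38 assembly at chr11:102887336-102900912 (Gfap), chr2:13573927-13582826 (Vim) and chr12:104406729-104414329 (Serpina3n), and the annotation gives all 10 members as protein coding. Of all stretches of 50 bases (the read length) in Serpina3n transcripts, 6.9% also occurred in other genes. Those that shared the most were members of the Serpina3 family. For Glul the share was 14.2%, with the glutamine synthetase pseudogene Glns-ps1 among the genes that hold the same stretches, and for the other 8 members it was at most 0.433%. Values of Serpina3n and Glul are therefore uncertain to the extent that reads were split among copies.

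The genotype labels were checked on App, the amyloid precursor protein gene, whose level was 0.90 ± 0.05 (SE) higher on the log2 scale in A+ mice, with the lowest A+ mouse (15.05) above the highest Aw mouse (14.86). Prnp, whose promoter drives that transgene, was higher by 1.11 ± 0.05. Mapt, the tau gene, and Camk2a gave 0.06 and -0.06 between T+ and Tw mice, so the mouse transcript values do not check the human Tau transgene. The astrocyte label of the list rests on known markers, and all 40 genes of a further list of astrocyte-enriched genes were also measured in this tissue. Choroid plexus markers varied most among mice: the summed level of 7 markers, among them Ttr, ran from 9.40 to 18.101 on the log2 scale in Aw mice and from 10.4 to 17.6 in A+ mice. In 6 of the 45 mice, 5 of them on TWD, the median correlation with all other mice was below 0.962, the lower fence of the 45 values. Samples had been handled in batch 0 (20 mice) and batch 1 (25 mice), and the authors had set the batch means of every gene equal. In this bulk tissue, more cells of a type and more RNA per cell cannot be told apart.

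**Figure D1:**
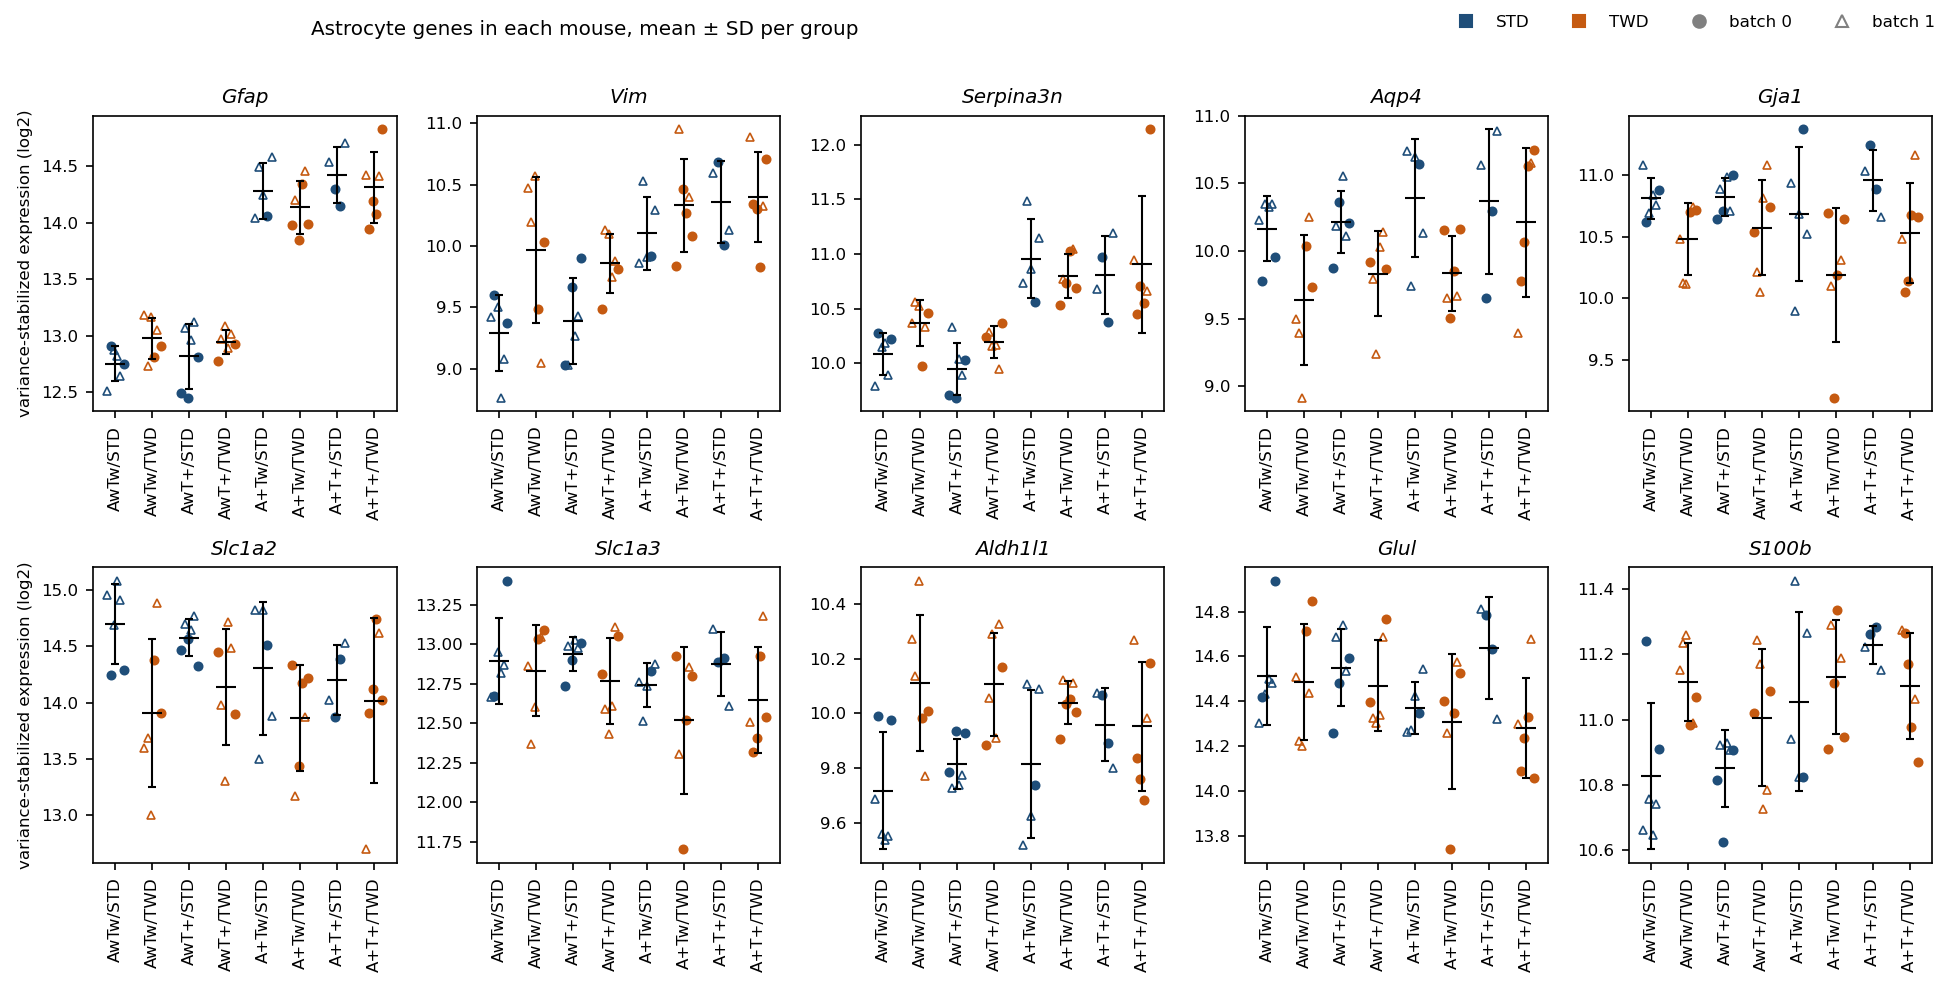
Variance-stabilized expression (log2, y axis) of the 10 genes in each of 45 mice by genotype and diet (x axis), with STD in blue, TWD in orange, batch 0 as filled circles and batch 1 as open triangles. Black bars are the mean ± SD of each group. For Gfap all 21 A+ mice (13.84 or higher) lie above all 24 Aw mice (13.18 or lower), and no resting gene shows such a gap.

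Gfap was higher in every mouse with the APP/PS1 transgene. In AwTw/STD mice Gfap ran from 12.51 to 12.91 (median 12.79), and in AwTw/TWD mice from 12.74 to 13.18 (median 12.98). AwT+/STD mice lay between 12.45 and 13.12 (median 12.89) and AwT+/TWD mice between 12.78 and 13.09 (median 12.95). The 4 Aw groups thus overlapped throughout. The 5 A+Tw/STD mice had 14.04, 14.06, 14.25, 14.49 and 14.58, and the A+Tw/TWD mice ran from 13.84 to 14.45 (median 14.10). The 4 A+T+/STD mice had 14.15, 14.30, 14.54 and 14.71, and the A+T+/TWD mice ran from 13.94 to 14.83 (median 14.30). No A+ mouse reached down to any Aw mouse, and the A+ groups overlapped one another. Such a complete separation of 21 A+ from 24 Aw mice held for 27 genes, 0.17% of the table. In the order of group means Gfap fell from A+T+/STD (14.42) through A+T+/TWD (14.31), A+Tw/STD (14.28) and A+Tw/TWD (14.13) to the 4 Aw groups (12.98 to 12.75), and the only neighbours further apart than their SDs were A+Tw/TWD and AwTw/TWD.

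Vim, the filament partner of Gfap, was higher in A+ mice too, but its ranges overlapped. Vim ran from 8.76 to 9.60 (median 9.39) in AwTw/STD mice and from 9.03 to 9.90 (median 9.35) in AwT+/STD mice. On the same diet the A+Tw mice had 9.86, 9.91, 9.92, 10.29 and 10.53, and the A+T+ mice 10.01, 10.13, 10.60 and 10.69. On STD, all A+Tw mice lay above all AwTw mice, as 1.27% of genes separated in either direction, and all A+T+ mice above all AwTw and AwT+ mice (4.31% and 5.66% of genes). On TWD the Aw mice were higher and the groups mixed: AwTw/TWD ran from 9.04 to 10.57, AwT+/TWD from 9.48 to 10.13, A+Tw/TWD from 9.84 to 10.95 and A+T+/TWD from 9.83 to 10.89. In all, 5 of 21 A+ mice were above every Aw mouse. No 2 neighbours in the order of the 8 group means of Vim were further apart than their SDs, from A+T+/TWD (10.40) down to AwTw/STD (9.29).

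Serpina3n lay between these patterns. It ran from 9.79 to 10.28 (median 10.17) in AwTw/STD mice, from 9.68 to 10.33 (median 9.96) in AwT+/STD, from 9.97 to 10.56 (median 10.41) in AwTw/TWD and from 9.94 to 10.37 (median 10.21) in AwT+/TWD mice. The A+Tw/STD mice had 10.56, 10.73, 10.86, 11.15 and 11.49, and the A+T+/STD mice 10.38, 10.68, 10.97 and 11.20. A+Tw/TWD mice ran from 10.53 to 11.04 (median 10.75) and A+T+/TWD mice from 10.45 to 12.14 (median 10.68). Of the 21 A+ mice, 17 were above every Aw mouse, and 1 A+T+/TWD mouse (12.14, replicate 6) stood apart from the next of its group (10.94), and the same mouse had the highest Gfap of its group. Of neighbouring group means, only A+Tw/TWD (10.80) and AwTw/TWD (10.37) were further apart than their SDs.

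The comparison of A+ with Aw mice asked what the APP/PS1 transgene changed across diets and Tau genotypes. All 3 reactive genes rose and none of the 7 resting genes passed the test. Gfap was higher by 1.44 ± 0.06 (SE) on the log2 scale, a 2.72-fold difference (limma, adjusted p = 2.1e-21), Serpina3n by 0.73 ± 0.10 (adjusted p = 3.5e-07) and Vim by 0.69 ± 0.11 (adjusted p = 1.9e-05). With the same test 3.77% of all genes passed, 3.11% as higher in A+ mice. The median difference was 0.73 for the 3 reactive genes, -0.09 for the 7 resting genes and -0.02 for all genes. All 3 calls held when any 1 of the 45 mice was left out. In batch 1 alone the differences were 1.48, 0.76 and 0.83 for Gfap, Serpina3n and Vim, all past the threshold. In batch 0 alone they were 1.36 (adjusted p = 1.4e-06 with limma), 0.59 (0.27) and 0.57 (0.11).

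Among the resting genes the A+ intervals were narrow for some and wide for others. Aldh1l1 differed by 0.01 (95% CI -0.12 to 0.13), Glul by -0.11 (-0.25 to 0.03), Gja1 by -0.09 (-0.31 to 0.13) and Slc1a3 by -0.17 (-0.34 to 0.00). For Slc1a2 the interval was -0.55 to 0.06 around -0.24. The endfoot channel Aqp4 and S100b had positive values, 0.24 (0.00 to 0.48, limma adjusted p = 0.33) and 0.18 (0.07 to 0.30, adjusted p = 0.056), and for each 8 of 21 A+ mice lay above every Aw mouse. Both passed once a score of the strongest mouse-to-mouse pattern, described with diet below, was a covariate. Aqp4 then gave 0.37 (limma adjusted p = 3.3e-04) and S100b 0.13 (adjusted p = 0.044). That score itself differed in median between Aw (0.29) and A+ mice (-0.18), so the fit can add calls by construction. The fit is therefore no test of a rise in Aqp4 or S100b. S100b passed too when any 1 of 10 mice was left out: AwTw/STD 2, AwTw/TWD 3, AwT+/TWD 2 or 3, A+Tw/STD 3 or 4, A+Tw/TWD 1 or 6 and A+T+/TWD 4 or 6, by replicate number (lowest adjusted p = 0.0097). Aqp4 passed as well, at 0.36 (adjusted p = 2.7e-04), with the trend over transcript length and GC content removed from each mouse, an alternative chosen after seeing the data.

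**Figure D2:**
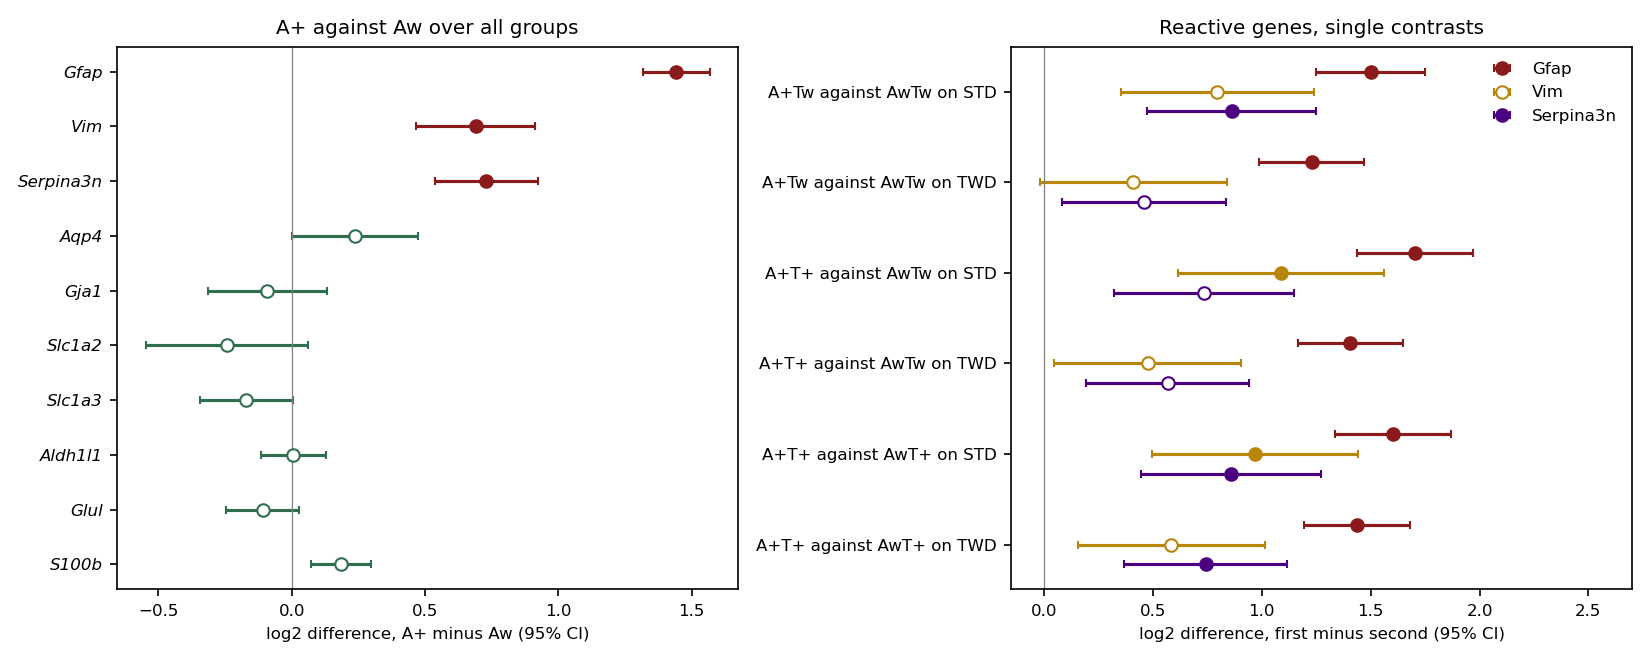
Left, log2 difference A+ minus Aw over all groups with its 95% CI (x axis) for the 10 genes (y axis), reactive genes in red and resting genes in green. Right, the same for the 3 reactive genes in 6 contrasts of single groups. Filled points have a limma adjusted p under 0.05; Gfap is filled in all contrasts (1.23 to 1.70).

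In the single contrasts of A+ groups with control groups, which share control and A+ mice among them, Gfap passed in all 6. On STD it was higher by 1.499 ± 0.124 (SE) in A+Tw than in AwTw mice (limma adjusted p = 1.7e-11), by 1.70 ± 0.13 in A+T+ than in AwTw mice and by 1.60 ± 0.13 in A+T+ than in AwT+ mice. On TWD these differences were 1.23 ± 0.12, 1.41 ± 0.12 and 1.44 ± 0.12. The values of Gfap did not overlap in any of the 6 contrasts, a separation that on TWD held for 0.667%, 0.686% and 0.585% of all genes in the order just given. An exact permutation test of A+Tw/STD against AwTw/STD, two-sided and within batch, gave p = 0.00476, the smallest it allows.

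Vim and Serpina3n passed in fewer contrasts. Vim rose in A+T+/STD mice against AwTw/STD (1.09 ± 0.23, limma adjusted p = 0.0059) and AwT+/STD (0.97 ± 0.23, adjusted p = 0.023), and its value of 0.80 in A+Tw/STD mice did not pass (adjusted p = 0.079). Serpina3n rose in A+Tw/STD mice against AwTw/STD (0.86 ± 0.19, adjusted p = 0.0094). It rose in A+T+ mice against AwT+ on STD (0.86 ± 0.20, adjusted p = 0.020) and TWD (0.74 ± 0.19, adjusted p = 0.037). Against AwTw, Serpina3n did not pass in A+T+/STD mice (0.73 ± 0.20, limma adjusted p = 0.061) or in either A+ group on TWD. On TWD Vim gave 0.41 to 0.59, and none of these passed. The 10 members gave 2 calls for A+Tw against AwTw on STD and 1 on TWD (0.925% and 0.824% of all genes), 2 and 1 for A+T+ against AwTw (1.32% and 0.73%), and 3 and 2 for A+T+ against AwT+ (0.95% and 0.761%). The Vim call against AwTw/STD was lost without A+T+/STD replicate 2 (adjusted p = 0.073) and the Serpina3n call in A+Tw/STD without A+Tw/STD replicate 2 (adjusted p = 0.081). The Vim call against AwT+/STD was lost without AwT+/STD replicate 1, 2 or 4 or A+T+/STD replicate 1 or 2 (adjusted p up to 0.23), and that of Serpina3n without AwT+/STD replicate 1 or 3 or A+T+/STD replicate 2 or 4 (up to 0.15). On TWD the Serpina3n call was lost without any 1 of AwT+/TWD replicates 1 to 5 or A+T+/TWD replicates 1 or 6 (up to 0.12). Without A+T+/TWD replicate 6, the mouse with Serpina3n at 12.14, its difference from AwT+/TWD was 0.50 (adjusted p = 0.11).

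The Tau transgene alone was tested in AwT+ against AwTw mice. None of the 10 members passed on either diet with limma, and none had an unadjusted p under 0.05. Over all genes 0 passed on either diet, with 380 on STD and 484 on TWD at an unadjusted p under 0.05. Gfap differed by 0.10 (95% CI -0.14 to 0.34) on STD and by -0.03 (-0.27 to 0.21) on TWD. Over all T+ against Tw mice no member passed, where 0.0189% of all genes did. At an unadjusted p under 0.05 there were 0 members and 819 of all genes. There the intervals were -0.01 to 0.24 for Gfap, -0.13 to 0.31 for Vim and -0.27 to 0.11 for Serpina3n. Whether the A+ difference itself changed with Tau was tested as an interaction, and 0 of 10 members passed with limma (0 unadjusted, beside 232 of all genes): for Gfap the A+ effect in T+ minus that in Tw mice was 0.16 (-0.09 to 0.40).

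Diet moved 5 of the 10 genes, of which Vim had also risen with the APP/PS1 transgene. Over all genotypes, TWD mice had more Vim (0.39 ± 0.11 SE) and Aldh1l1 (0.24 ± 0.06) and less Aqp4 (-0.41 ± 0.11), Gja1 (-0.38 ± 0.11) and Slc1a2 (-0.49 ± 0.15), with limma adjusted p between 0.016 and 0.019. Gfap gave 0.06 (95% CI -0.07 to 0.18) and Serpina3n 0.14 (-0.05 to 0.33), and neither passed. These 5 members stand beside 29.4% of all genes that passed for diet, 16% higher and 13.4% lower.

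The levels behind these calls overlapped widely. Slc1a2 ran from 13.50 to 15.09 (median 14.53) in the 21 STD mice and from 12.69 to 14.89 (median 14.002) in the 24 TWD mice. Aqp4 ran from 9.65 to 10.89 (median 10.30) on STD and from 8.91 to 10.75 (median 9.86) on TWD. Gja1 ran from 9.90 to 11.38 (median 10.84) on STD and from 9.19 to 11.16 (median 10.51) on TWD. In every genotype the TWD mean of these 3 genes was below the STD mean. Aldh1l1 ran the other way, from 9.52 to 10.11 (median 9.79) on STD and from 9.68 to 10.48 (median 10.04) on TWD. Its mean was higher on TWD in 3 genotypes, whereas in A+T+ it was 9.96 on STD and 9.95 on TWD. For Slc1a2, Aqp4, Gja1, Aldh1l1 and S100b no neighbours in the order of the 8 group means were further apart than their SDs, and the same held for Slc1a3 (12.94 to 12.52) and Glul (14.64 to 14.28).

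The diet values differed between batches and with the mice included. In batch 1 alone Slc1a2 gave -0.80, Aqp4 -0.67, Vim 0.65, Aldh1l1 0.40 and Gja1 -0.32, and all passed. In batch 0 alone they gave -0.17, -0.10, 0.12, 0.06 and -0.48, and none passed with limma (lowest adjusted p = 0.82). Without the 6 mice of low correlation, a choice made after seeing the data, 0 members passed: Slc1a2 gave -0.21, Aqp4 -0.24, Gja1 -0.26, Vim 0.25 and Aldh1l1 0.17 (adjusted p from 0.32 to 0.38). All 5 calls held when any 1 of the 45 mice was left out.

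A pattern shared by many genes ran along these values. The first principal component of what remained after groups and batch were removed held 41.3% of the residual variance, and each mouse was scored by its gene loadings on values from which groups had not been removed, so the score itself can carry group differences. It lay at a median of 0.51 (range -1.23 to 1.95, in SD units) in STD and -0.26 (-2.42 to 1.24) in TWD mice. Among mice of the same group, Slc1a2 followed it with r = 0.97, Aqp4 with 0.81 and Gja1 with 0.44, while Aldh1l1 (-0.87), Vim (-0.80) and S100b (-0.71) ran against it. Gfap (-0.30), Serpina3n (-0.28), Slc1a3 (0.24) and Glul (0.02) followed it less than the median gene did (0.54 in size), as did Gja1. Adjusting for such a score takes out any diet difference that lies along it, and a member that follows it as closely as Slc1a2 is then set nearly against itself. A lost call is therefore built into this fit and is no test of the diet effect. With the score as a covariate 0 members passed for diet, with Slc1a2 at -0.05, Aqp4 at -0.13, Gja1 at -0.24, Vim at 0.12 and Aldh1l1 at 0.08. Across genes, the diet difference fell with the length of the longest transcript (Spearman rho = -0.47 over 15695 genes, which are not independent replicates). The A+ difference fell with length too (Spearman rho = -0.35 over the same genes), so the relation was not particular to diet. The longest transcript of Slc1a2 has 11595 bases and that of Aqp4 5054, against 2926 for Vim and 1484 for S100b. Not all members were ordered so: Aldh1l1 (4175 bases) rose on TWD, while the shorter Gja1 (3889) fell. S100b did not pass for diet, nor did the short Gfap (2648) and Serpina3n (2064). The part of this pattern and of transcript length in the diet and A+ differences was not tested.

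**Figure D3:**
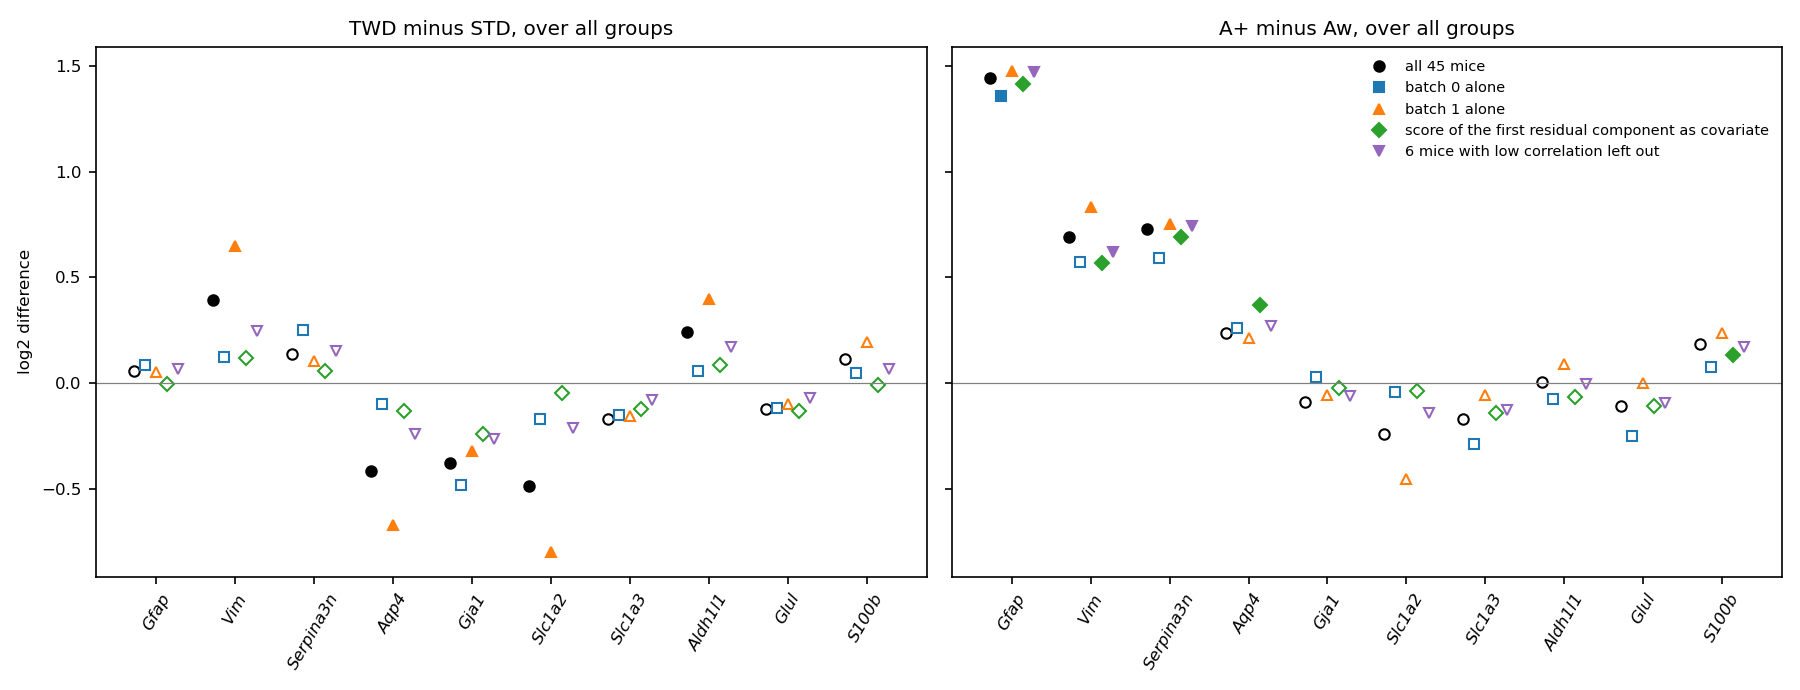
Log2 differences (y axis) of the 10 genes (x axis) for TWD minus STD on the left and A+ minus Aw on the right, in all 45 mice, in each batch alone, with the score of the first residual component as a covariate, and without 6 mice of low correlation. Filled points have a limma adjusted p under 0.05. The diet points of Slc1a2 run from -0.80 in batch 1 to -0.05 with the score, whereas Gfap stays between 1.36 and 1.48 for A+.

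Within single genotypes diet calls were few. In AwTw mice Vim (0.68 ± 0.21) and Aldh1l1 (0.39 ± 0.12) passed just under the threshold (limma adjusted p = 0.0498 for both), where 9.35% of all genes passed. Both calls were lost under 8 other settings and when any 1 of 32 mice was left out (adjusted p up to 0.18). In each of the 3 transgenic genotypes 0 members and 0 of all genes passed with limma. At an unadjusted p under 0.05 there were 2 members (Vim and Aldh1l1) and 1183 genes in AwT+, 2 members (Aqp4 and Gja1) and 705 genes in A+Tw, and 1 member (Glul) and 409 genes in A+T+. The difference between the A+ effect on TWD and on STD was tested directly and passed for 0 members (1 unadjusted, S100b, beside 412 of all genes): it was -0.22 (95% CI -0.47 to 0.03) for Gfap, -0.38 (-0.83 to 0.06) for Vim and -0.26 (-0.65 to 0.13) for Serpina3n.

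Mice of the same group also differed, and the reactive genes did not vary as a unit. After group and batch were removed, Gfap and Serpina3n went together over the 45 mice (Pearson r = 0.77, Spearman rho = 0.71, permutation p = 1e-05 each, the smallest 100000 permutations give, adjusted p = 5e-05 and 5.6e-05 over 45 pairs). Without the 2 mice farthest from the median of Gfap r was 0.66. The values were 0.88 in batch 0 and 0.57 in batch 1. Gfap with Vim gave r = 0.26 (rho = 0.26), which did not pass. Vim with Serpina3n gave r = 0.34 (permutation, adjusted p = 0.052) and rho = 0.37 (adjusted p = 0.037), so only the rank value passed. Vim instead went with Aldh1l1 (r = 0.78, rho = 0.79) and against Slc1a2 (r = -0.81, rho = -0.82), each with the smallest permutation p (adjusted p = 5e-05).

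The resting genes split. Slc1a3 and Glul, the transporter that takes up glutamate and the enzyme that converts it, were the closest pair of all 45 (r = 0.88, rho = 0.85), with Gja1 near both (r = 0.77 and 0.63). Aqp4 and Slc1a2 formed another close pair (r = 0.85, rho = 0.82). Aldh1l1 and S100b ran against Slc1a2 (r = -0.79 and -0.68). In all, 22 of 45 pairs passed on Pearson r by permutation with Benjamini-Hochberg adjustment. These were 14 of 21 resting pairs, 7 of 21 mixed pairs and 1 of 3 reactive pairs. The share of pairs that would pass among all genes was not tested. Because the median gene followed the first residual component with r of 0.54 in size, the count cannot be called particular to these genes. With the score of the residual component removed, 10 pairs passed, among them Slc1a3 with Glul (r = 0.91), Gja1 with Slc1a3 (0.76) and Gfap with Serpina3n (0.74). Vim with Aldh1l1 (0.30) and Vim with Slc1a2 (-0.23) no longer did.

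**Figure D4:**
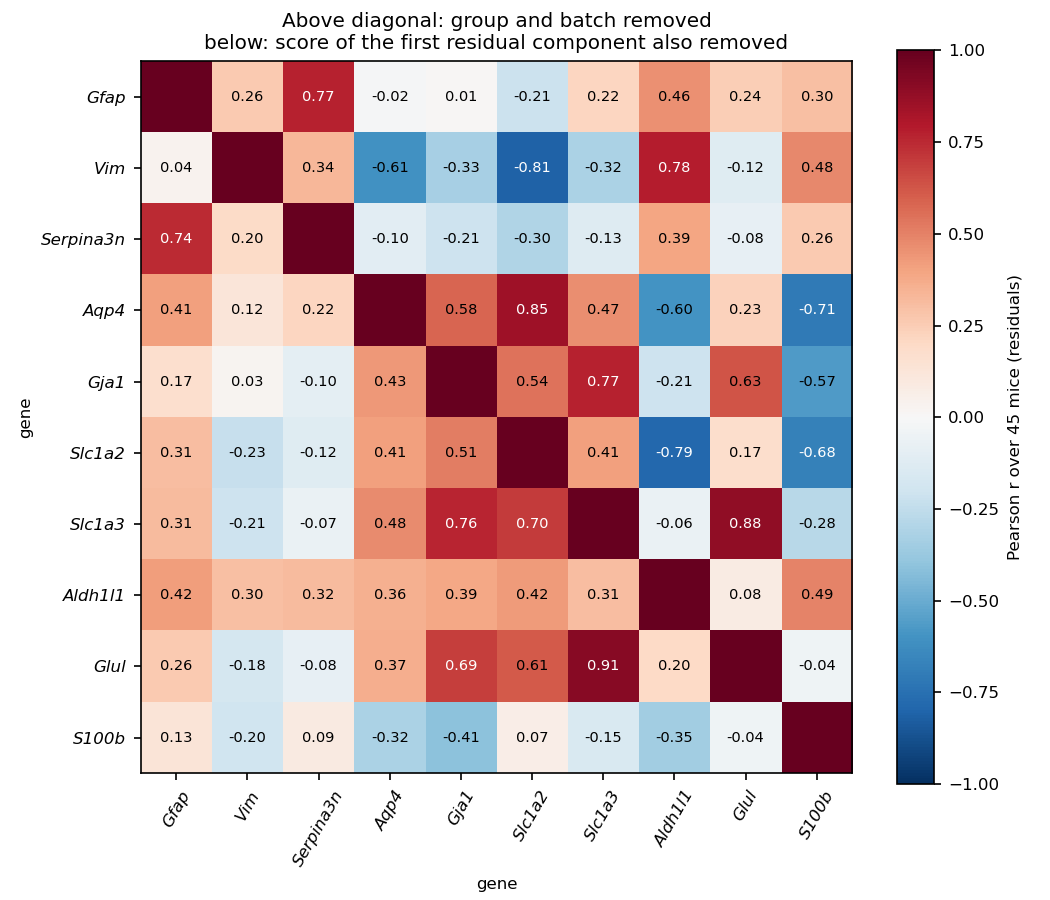
Pearson r between the 10 genes (both axes) over 45 mice after group and batch were removed, above the diagonal, and with the score of the first residual component removed as well, below it. Slc1a3 with Glul (0.88 and 0.91) and Gfap with Serpina3n (0.77 and 0.74) stay high on both sides, while Vim with Slc1a2 goes from -0.81 to -0.23.

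The genes most like each member were taken as those with the highest r over the same residuals of 45 mice, as a measure of likeness. For Gfap they were Serpina3n (0.77), March4 (0.72), Uck2 (0.70), Hivep3 (0.69) and Nptx2 (0.68). For Serpina3n they were Nptx2 (0.82), Gfap, Mfap4 (0.74), March4 (0.73) and Serpinf2 (0.72). Of the genes near Gfap and Serpina3n that are no members, Serpinf2 alone passed for A+ (0.59, limma adjusted p = 9.1e-04). For Vim they were Gsn (0.91), Clic1, Lgals1, Nbl1 and Pltp (0.87), of which Gsn (0.38, adjusted p = 0.0053) and Clic1 (0.52, adjusted p = 3.9e-04) passed for A+. For Aqp4 they were Fmnl2 (0.93), Rabgap1l, Ttll7, Apc and Trpc5 (0.92), and for Slc1a2 Clcn3 (0.98), Fam171b, Cnr1 and Slc24a2 (0.97) among the nearest 5. In each of these named neighbours of Aqp4 and Slc1a2 the diet difference was negative, from -0.38 (Rabgap1l) to -0.72 (Cnr1).

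Further genes of reactive and resting astrocytes were set beside the members. Of 29 other reactive astrocyte genes measured, 10 rose in A+ mice and none fell (median 0.20, against -0.02 over all genes, of which 3.11% rose). The largest were Cd14 (1.12), Aspg (0.89), Psmb8 (0.63) and Osmr (0.61), the receptor subunit for oncostatin M. Cd14 is also a known microglial surface protein, so its place in this list is not specific to astrocytes. Stat3, a transcription factor known from reactive astrocytes, rose by 0.33 ± 0.08 (limma adjusted p = 0.0075). Of 40 other astrocyte-enriched genes, 0 rose and 2 fell (median -0.06): Etnppl by -0.31 and the GABA transporter gene Slc6a11 by -0.24.

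Relatives of the members did not move with them as a rule. Among 13 other intermediate filament and partner genes, 0 rose and only Ina, a neuronal filament gene, fell (-0.13, adjusted p = 0.049), and Nes and Synm gave 0.04 and -0.03. Among 18 partners in glutamate and potassium handling only Slc6a11, which both lists hold, passed, and among 14 genes of the endfoot dystrophin complex 0 passed with limma, the lowest adjusted p belonging to Mlc1 (0.14, 0.089). Of the Serpina3 family only Serpina3g was measured, and it rose by 0.34. Its values were low, from 5.39 to 6.53 in Aw and from 5.78 to 6.96 in A+ mice. Serpina3g also shares stretches of 50 bases with Serpina3n, and the part of Serpina3n reads in its rise was not tested. In the S100 family S100a6 (0.87) and S100a4 (0.63) rose of 7 measured.

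Among markers of other cells, mainly those of microglia rose with the reactive genes. Of 8 microglia markers 6 rose in A+ mice, where 3.11% of all genes rose. They were led by the lysosomal gene Cd68 (1.74), the complement gene C1qa (1.19) and Csf1r (0.63). The summed level of the 8 microglia markers ran from 12.13 to 12.83 in Aw and from 12.91 to 13.71 in A+ mice, without overlap. Of single genes, 0.17% separated in this way. The homeostatic markers Tmem119 (0.24) and P2ry12 (0.06) did not pass. Of 7 oligodendrocyte markers Cldn11 passed (0.31), and 0 of 7 neuron, 3 oligodendrocyte precursor, 6 endothelial, 5 ependymal, 7 choroid plexus and 5 meningeal fibroblast markers did, although all 7 choroid plexus markers were higher (median 0.94). Vim is also made by such non-astrocyte cells. With the mean choroid plexus marker level as a covariate, chosen after seeing the data, the Vim A+ difference was 0.59 (limma adjusted p = 3.1e-04). For A+T+ against AwTw on STD, called above for Gfap and Vim, fewer members passed under that covariate. Choroid plexus markers were higher in that contrast too, with Ttr by 4.34 ± 1.92, although none passed with limma. The part of microglia in the A+ differences of the reactive genes was not tested.

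**Figure D5:**
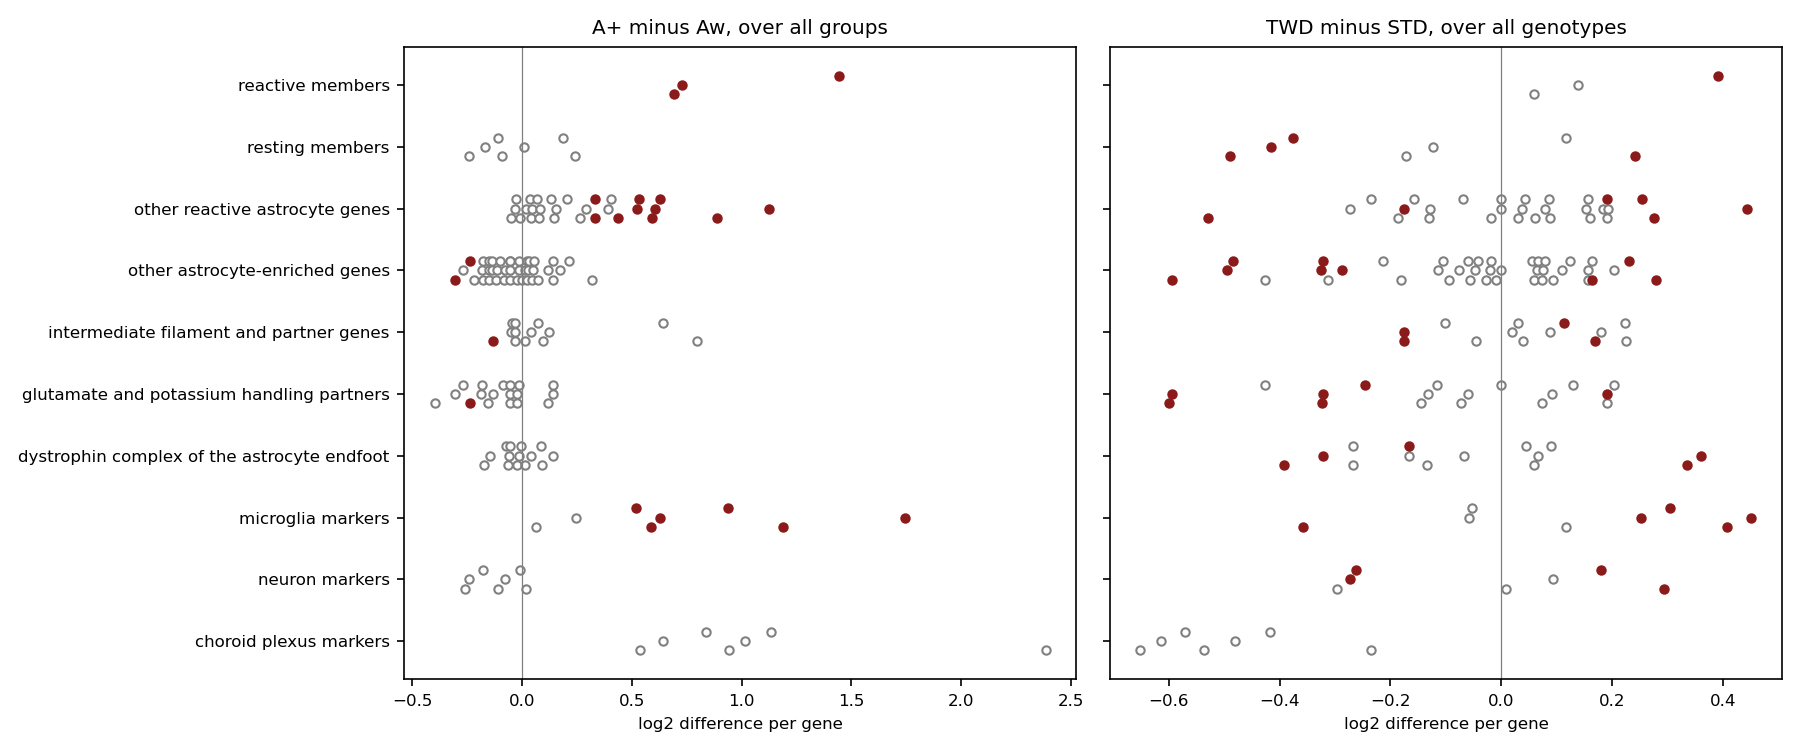
Log2 difference of each gene (x axis) by gene list (y axis) for A+ minus Aw on the left and TWD minus STD on the right, with filled points for a limma adjusted p under 0.05. For A+ the filled points lie to the right in the reactive and microglia lists (up to 1.74), and for diet they lie on both sides in most lists.

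For diet, where 29.4% of all genes passed (16% higher and 13.4% lower), most lists held calls both ways. The 6 calls among 29 other reactive genes and the 9 among 40 astrocyte-enriched genes were no larger a share than that. Of the other reactive genes 4 rose, among them Hspb1 (0.44), Lcn2 (0.28) and Psmb8 (0.25), and 2 fell, with Ptgs2 at -0.53. Of the astrocyte-enriched genes 3 rose and 6 fell, led by the bicarbonate transporter gene Slc4a4 (-0.59), Slc39a12 (-0.50), Bmpr1b (-0.48) and Dio2 (-0.32). Glutamate and potassium partners gave 1 higher and 5 lower, with Grm5 (-0.60), Slc4a4 and the potassium channel gene Kcnj10 (-0.32) among the lower. In the endfoot complex Sntb1 (-0.39) and Kcnj10 fell while Dtnb (0.36) rose. Filament genes gave 2 higher (Nefh 0.17, Ina 0.11) and 2 lower (Lmnb1 and Synm, -0.18 each). Medians of these 5 lists lay between -0.10 and 0.04, against -0.00 over all genes. Of the S100 family 5 of 7 rose and none fell, with S100a11 at 0.35 and S100a6 at 0.32. Serpina3g gave 0.05 and did not pass. Among markers of other cells, 4 microglia markers rose and 1 fell (P2ry12), 4 oligodendrocyte markers rose, neuron markers gave 2 higher and 2 lower, and precursor and endothelial markers 1 each way. None of the ependymal, choroid plexus or meningeal markers passed for diet.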

How the data were processed

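Hippocampal poly(A) RNA of 45 mice was sequenced as single reads of 50 bases. The deposited values are log2-like: the authors checked reads with FastQC 0.11.8, trimmed them (Trimmomatic 0.38), removed ribosomal and mitochondrial reads (Bowtie2 2.2.3), quantified mm10 transcripts with kallisto 0.44.0, kept genes with a mean count above 10, applied the variance-stabilizing transformation of DESeq2 1.22.2 and removed batch with limma 3.38.3. Because batch means were set equal, listed levels and group means may be shifted up or down where groups were split unevenly between batches. Fitted differences with a batch term are not changed by this step. Depth per mouse is not known from these values, so precision is the spread between mice.

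Genes were fitted with limma 3.58.1 (R 4.3.3) on 8 groups plus batch over all 45 mice, with a mean trend in the prior and Benjamini-Hochberg adjustment over 15897 genes at 0.05. No filter or pseudocount was added. Fold is 2 to the power of the log2 difference. Exact permutation tests kept batch. The test was tried on simulated data in which each gene varied independently. The measured genes shared a residual component, so that trial cannot show how often false calls arise here. Groups, diets and batches came from the labels. Members and lists were chosen with earlier results of these data known, and the named list genes are up to 4 with the largest change among those past the threshold (with Stat3, Nes, Synm, Tmem119 and P2ry12 chosen after their values were seen). Alternatives were no batch covariate, the label prefix or the residual score as a further covariate, each batch alone, quantile normalization, a low-value filter, no trend, only the groups compared, each mouse left out, and 3 settings chosen after seeing the data. Of all genes, 157 repeat the values of another gene, none of them a member. Promoters are from RefSeq (GRCm38.p6), with 9 of 10 members matched. A few genes that the rule names are not reported here.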

Additional observations from a re-analysis of the deposited data

Results flagged for a closer look

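In 80 sets of mice (10 genes in 8 groups) 3 had 1 mouse far from the others by Dixon's test at the 95% level, where chance flags about 1 in 20 groups, or 4 of 80. Serpina3n in A+T+/TWD mice had 12.14 in replicate 6 against 10.94 in the next mouse. Glul in AwTw/STD mice had 14.94 in replicate 6 against 14.50 in the next. S100b in AwT+/STD mice had 10.63 in replicate 3, below 10.82 in the next. All 3 mice were of batch 0. The tests of a difference in the A+ effect between diets and between Tau genotypes passed for none of the 10 genes with limma, with 1 (S100b, diet) and 0 at an unadjusted p under 0.05.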

How the results depend on the processing

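Counts below are of the 10 members past the limma threshold. No direction of a called value turned under any setting. In batch 0 alone the counts were 0 for A+Tw against AwTw on STD, 1 for A+T+ against AwTw on STD, 1 for A+T+ against AwT+ on each diet, 1 for A+ against Aw, and 0 for diet over all genotypes and in AwTw. In batch 1 alone they were 1 for A+T+ against AwT+ on each diet and 5 for diet in AwTw. With the residual score as a covariate they were 3 for A+T+ against AwTw on TWD, 5 for A+ against Aw, 0 for diet over all genotypes and in AwTw, and 10 correlated pairs in place of 22, where the score carries group differences and so can remove or add calls by construction. Quantile normalization gave 4 for A+T+ against AwTw on STD and 0 for diet in AwTw. Fitting only the groups compared gave 1 for A+Tw against AwTw on STD, 1 for A+T+ against AwT+ on TWD and 0 for diet in AwTw. Diet in AwTw gave 4 with genes above the 25th percentile of the mean, and 0 with the label prefix or without a mean trend. Of the settings chosen after seeing the data, removing the length and GC trend gave 2 for A+T+ against AwTw on TWD, 3 for diet over all genotypes and 0 in AwTw. Leaving out the 6 mice of low correlation gave 1 for A+T+ against AwT+ on TWD and 0 for both diet results, and the choroid plexus covariate gave 1 for A+T+ against AwTw on STD. With each mouse left out in turn the counts ran from 1 to 3 (A+Tw against AwTw on STD), 1 to 4 (A+T+ against AwTw on STD), 1 to 3 and 1 to 2 (A+T+ against AwT+ on STD and TWD), 3 to 4 (A+ against Aw) and 0 to 5 (diet in AwTw). The causes of these changes were not tested. No paired analysis was possible because the labels give no replicate numbers, and the numbers used here only name mice. Depth per mouse was not known, groups held 4 to 6 mice, and some groups had 1 or 2 mice in a batch, so the values within a batch are imprecise.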
